A study of Mus musculus with 9 samples.

Results

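Long non-coding RNA (lncRNA) promoters were examined in NOMe-seq data from differentiating female mouse embryonic stem cells (mESCs). NOMe-seq treats fixed nuclei with an enzyme that methylates cytosine in GpC dinucleotides where no nucleosome covers the DNA, so that a higher percent GpC methylation stands for more open chromatin. The genome had been divided by the authors into consecutive windows of 200 read positions, and each window has 1 value per library. A window was a member when it held the 5′ end of an lncRNA gene of GENCODE M21 on chromosomes 1 to 19 and lay at least 5 kb from the 5′ end of any protein-coding gene. This left 9350 windows with 9546 lncRNA genes, 1.19% of the 786533 autosomal windows with a value in every library. Of 12630 autosomal lncRNA genes, 66 had a 5′ end in no window, 2962 were dropped for a protein-coding 5′ end nearby, and 56 for a missing value. They were set against 18779 windows with a protein-coding 5′ end and 270214 intergenic windows, which lie at least 5 kb from any annotated gene.

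All cells were F1 mESCs from FVB/NJ dams and CAST/EiJ sires. There were 9 libraries, with 1 from undifferentiated cells at day 0, 1 each from cells with a non-silencing hairpin (Nons) at days 4, 5, 6 and 7 of differentiation, and 1 each from cells with a hairpin against Smarcc1 (the knockdown) at the same days. Values along the Nons or the Smarcc1 course are given in the order of these 4 days. The Smarcc1 protein is a core part of BAF, a remodelling complex that slides and evicts nucleosomes. Hairpins were delivered on day 2 and cells were selected with puromycin from day 3, so that the day 0 cells carried neither. The titles name a single Smarcc1 hairpin, and the cells were left to differentiate without direction to a lineage. The values analysed here hold no RNA measurement, so neither the depth of the knockdown nor the identity of the cells was read from them. No condition was replicated, as each had 1 library per day, and the read depth behind the windows is unknown. The median member window was 2662 bp long, so each value averages the open stretch at a start site with the chromatin beside it.

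LncRNAs are transcribed by RNA polymerase II and usually capped and spliced like messenger RNAs, but they encode no protein. As a class they are expressed at low levels and in few cell types. Many protein-coding promoters sit in CpG islands, stretches rich in CpG that are kept free of nucleosomes in most cells, whereas most lncRNA promoters have few CpGs. Embryonic stem cells are known for lncRNAs that fall away with differentiation, and imprinted clusters are known for lncRNAs that silence their neighbours on 1 parental chromosome.

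The promoter sequences of 5 genes illustrate the range of sequence that the members cover, 3 CpG-rich and 2 CpG-poor. A member was called CpG-rich when the 1000 bases centred on its 5′ end had a GC content of at least 55% and an observed over expected CpG ratio of at least 0.6. Each sequence runs from 250 bases before the GENCODE 5′ end for 300 bases on the strand of the gene, from the GRCm38 reference and therefore from C57BL/6J and not from the 2 strains used. Capitals mark GpC, the dinucleotide that the enzyme can methylate.
Dancr, chr5:74092810-74093109, plus strand: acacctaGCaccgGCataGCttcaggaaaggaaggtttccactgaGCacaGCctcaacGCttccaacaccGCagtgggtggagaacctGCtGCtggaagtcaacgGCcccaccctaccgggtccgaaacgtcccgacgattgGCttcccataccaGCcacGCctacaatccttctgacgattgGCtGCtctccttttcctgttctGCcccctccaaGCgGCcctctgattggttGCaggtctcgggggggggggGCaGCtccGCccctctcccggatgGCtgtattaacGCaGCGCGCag
Snhg15, chr11:6528711-6529010, minus strand: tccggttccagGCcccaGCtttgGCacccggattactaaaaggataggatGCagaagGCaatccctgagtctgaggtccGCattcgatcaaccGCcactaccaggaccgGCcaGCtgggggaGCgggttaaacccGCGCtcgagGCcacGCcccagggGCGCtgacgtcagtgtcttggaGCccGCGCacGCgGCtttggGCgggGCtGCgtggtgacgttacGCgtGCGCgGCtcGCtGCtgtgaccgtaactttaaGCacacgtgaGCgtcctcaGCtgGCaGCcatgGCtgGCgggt
Dleu2, chr14:61682324-61682623, minus strand: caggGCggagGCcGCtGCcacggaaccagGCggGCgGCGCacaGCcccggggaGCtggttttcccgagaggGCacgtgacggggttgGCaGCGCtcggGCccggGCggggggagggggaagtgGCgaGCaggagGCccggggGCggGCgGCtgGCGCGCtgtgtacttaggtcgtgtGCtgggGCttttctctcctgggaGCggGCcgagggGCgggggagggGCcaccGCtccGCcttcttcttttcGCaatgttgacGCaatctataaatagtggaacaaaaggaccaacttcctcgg
Platr22, chr1:136695961-136696260, plus strand: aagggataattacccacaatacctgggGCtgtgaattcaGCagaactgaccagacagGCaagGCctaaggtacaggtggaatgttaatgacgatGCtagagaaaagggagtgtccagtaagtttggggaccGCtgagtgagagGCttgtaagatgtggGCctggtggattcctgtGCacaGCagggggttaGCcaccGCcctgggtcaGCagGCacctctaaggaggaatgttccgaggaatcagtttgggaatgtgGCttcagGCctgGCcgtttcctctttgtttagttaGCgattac
Lncenc1, chr13:97434720-97435019, plus strand: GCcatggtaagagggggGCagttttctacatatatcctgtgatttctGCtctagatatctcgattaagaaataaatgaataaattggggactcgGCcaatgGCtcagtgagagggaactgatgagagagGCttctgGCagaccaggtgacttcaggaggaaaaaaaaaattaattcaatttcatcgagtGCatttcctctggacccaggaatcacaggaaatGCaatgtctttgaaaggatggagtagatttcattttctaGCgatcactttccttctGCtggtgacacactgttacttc

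The Dancr, Snhg15 and Dleu2 promoters hold 27, 37 and 35 GpC and 18, 29 and 29 CpG in these 300 bases. The Platr22 and Lncenc1 promoters hold 18 and 11 GpC and only 6 and 4 CpG. Over the promoters of all 9546 member genes the median was 15 GpC (5th to 95th percentile 7 to 26) and 3 CpG, and 99.9% held at least 1 GpC. The 195 CpG-rich promoters had a median of 33 GpC and 26 CpG, against 15 and 3 for the CpG-poor ones. These counts take in every GpC, and how many of them gave calls was not examined. Only 187 member windows, 2.00% of the 9350, were CpG-rich, against 7079 of 18779 protein-coding promoter windows (37.7%).

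The first question was whether lncRNA promoters were more open than intergenic DNA. They were, by a small amount, in every library. Over lncRNA promoter windows the median was 11.8% before differentiation. From day 4 to day 7 the Nons course gave 14.6%, 22.5%, 10.9% and 6.73%, and the Smarcc1 course gave 11.7%, 20.9%, 12.4% and 7.50%. Over intergenic windows it was 10.9% before differentiation, 13.8%, 20.8%, 10.1% and 6.19% along the Nons course and 10.9%, 20%, 11.6% and 6.67% along the Smarcc1 course. LncRNA promoter windows exceeded intergenic windows by 0.893 percentage points on average (SD 0.311, 9 of 9 libraries; exact two-sided sign-flip permutation test, p = 0.00391, the smallest that 9 libraries can give; 0.00430 after Benjamini-Hochberg adjustment over 11 such tests). The libraries share 1 cell source and 1 time course, so this p measures the spread between these libraries only. The excess ranged from 0.545 points in Nons at day 7 to 1.67 points in Nons at day 5. Within a library it held on 19 of 19 autosomes, except in the knockdown at day 5, where it held on 17.

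Against the windows that lie 2 to 4 windows away on either side and hold no start site, the excess was 0.568 points (SD 0.298, 9 of 9 libraries; exact sign-flip permutation test, p = 0.00391). This comparison, which was chosen after seeing the data, sets the median of lncRNA promoters against the median of all 53596 such flanking windows, and gives a smaller value than the intergenic reference. Within 10 strata of equal GC content the excess over intergenic windows was 0.929 points, and it was positive in 9 of 9 libraries in each stratum, from 0.406 points in the stratum of lowest GC to 1.98 points in that of highest GC.

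**Figure D1:**
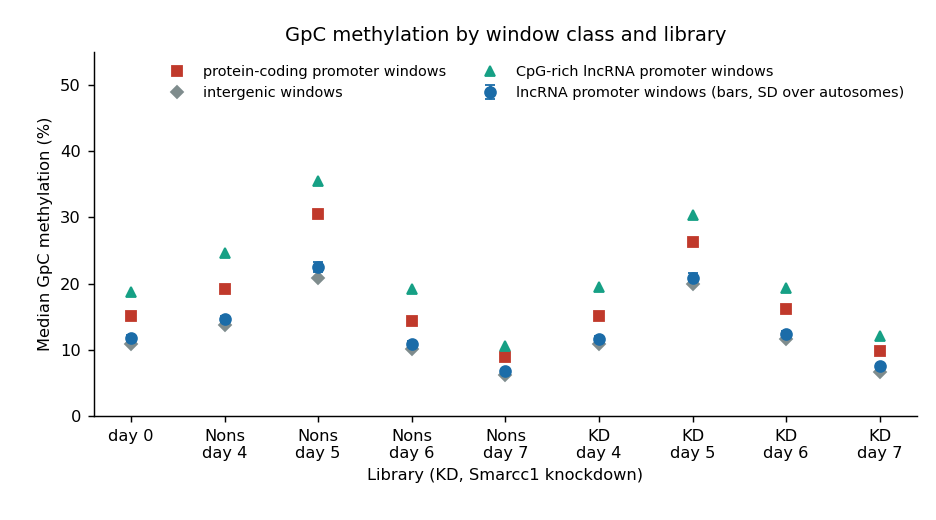
Median GpC methylation in percent (vertical axis) over lncRNA promoter, CpG-rich lncRNA promoter, protein-coding promoter and intergenic windows in each of the 9 libraries (horizontal axis), with bars on the lncRNA points for the SD over 19 autosomes. In every library lncRNA promoters lay just above intergenic windows and below protein-coding promoters, and the 187 CpG-rich lncRNA promoters lay above both.

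Protein-coding promoters were more open than lncRNA promoters. Their median was 15.1% before differentiation, 19.2%, 30.5%, 14.3% and 8.96% along the Nons course and 15.04%, 26.3%, 16.2% and 9.76% along the Smarcc1 course. LncRNA promoters lay below them in 9 of 9 libraries, with a mean difference of -4.03 points (SD 1.80; exact sign-flip permutation test, p = 0.00391), and the difference ran from -8.03 points in Nons at day 5 to -2.22 points in Nons at day 7. The mean difference was -1.55 points when the 5′ end of every transcript of a protein-coding gene counted as a promoter. These transcripts were not limited to coding ones. Expressed as a share of the rise of protein-coding over intergenic windows, the lncRNA rise was between 14.7% in the knockdown at day 5 and 27.0% in the knockdown at day 7.

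On average the gap to protein-coding promoters was smaller between windows of like sequence. Within strata of equal GC content the difference was -2.40 points. In the 2 strata of lowest GC it was 0.337 and 0.301 points, with lncRNA promoters the lower class in only 2 of 9 libraries, and in the stratum of highest GC it was -5.71 points. From the lowest to the highest stratum the median of the mean over 9 libraries went from 13.2% to 21.6% for protein-coding promoters and from 13.6% to 15.2% for lncRNA promoters. A further pair of comparisons, chosen after seeing the data, used the CpG classes. CpG-rich lncRNA promoters differed from CpG-rich protein-coding promoters by -0.949 points (SD 0.904, lncRNA lower in all libraries but 2; exact sign-flip permutation test, p = 0.0273, also after adjustment). CpG-poor lncRNA promoters differed from CpG-poor protein-coding promoters by -1.72 points (SD 0.813, lower in 9 of 9 libraries; exact sign-flip permutation test, p = 0.00391).

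The division among lncRNA promoters themselves was larger than either. CpG-rich lncRNA promoters had a median of 18.8% before differentiation, of 24.6%, 35.5%, 19.2% and 10.6% along the Nons course and of 19.4%, 30.3%, 19.4% and 12.1% along the Smarcc1 course. The corresponding CpG-poor medians were 11.8%, then 14.5%, 22.3%, 10.8% and 6.67%, and 11.5%, 20.8%, 12.3% and 7.41%. The CpG-rich class was higher in 9 of 9 libraries, by 7.99 points (SD 2.81; exact sign-flip permutation test, p = 0.00391), which compares with 7.22 points (SD 2.18) between CpG-rich and CpG-poor protein-coding promoters. CpG-poor members still exceeded the windows flanking them, by 0.465 points (SD 0.258, 9 of 9 libraries), and CpG-rich members did so by 8.07 points (SD 2.92, 9 of 9 libraries). CpG-rich windows were also shorter, with a median of 2198 bp against 2671 bp, and the part of window length in their values was not tested.

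**Figure D2:**
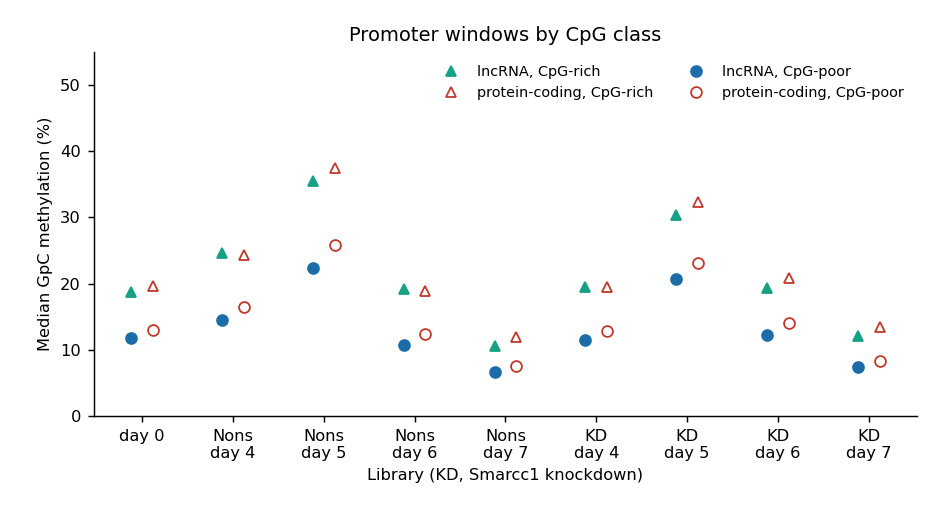
Median GpC methylation in percent (vertical axis) of CpG-rich and CpG-poor promoter windows of lncRNA genes (filled) and protein-coding genes (open) in the 9 libraries (horizontal axis). The distance between triangles and circles is wide in every library, from 3.97 to 13.2 points for lncRNA genes, and filled and open symbols of the same shape lie close together.

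The openness of CpG-rich lncRNA promoters was centred on the start site. When windows were sorted by the distance of their centre from the 5′ end in bins of 1 kb, the median around CpG-rich members in Nons at day 5 was 35.1% in the central bin, 34.1% and 34.5% in the bins 1 kb before and after it, and between 19.9% and 24.2% at 3 kb or more. At day 0 the central bin reached 21.8%, against 10.2% to 13.9% at 3 kb or more. The central bin held 79 windows of CpG-rich members. Over all members the curve was nearly flat, with 22.8% in the central bin of Nons at day 5 and 21.1% to 21.7% at 3 kb or more. Around protein-coding 5′ ends the central bin was at 32.6%.

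**Figure D3:**
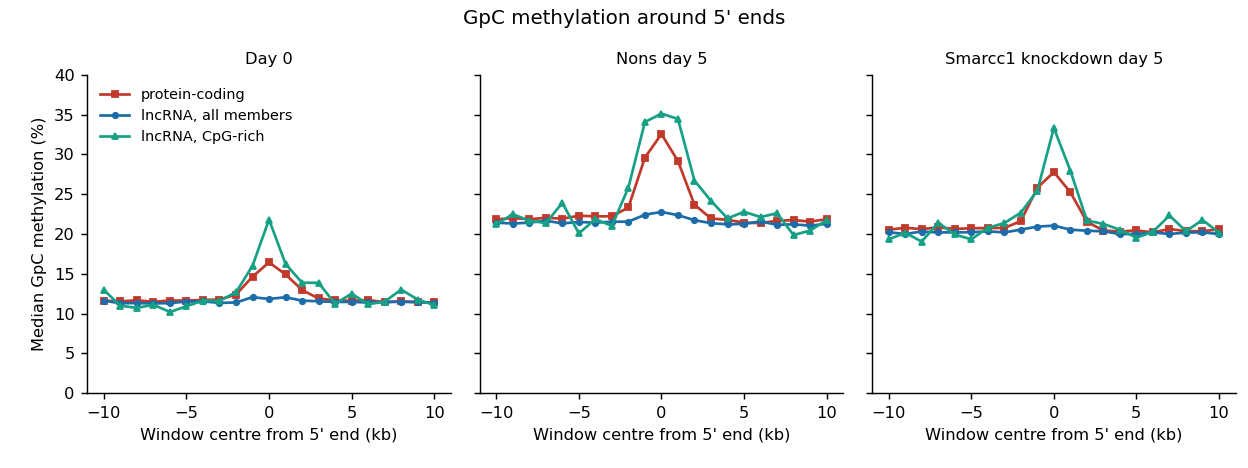
Median GpC methylation in percent (vertical axis) by distance of the window centre from the 5′ end in kb, with negative values upstream (horizontal axis), at day 0, in Nons at day 5 and in the knockdown at day 5. CpG-rich lncRNA and protein-coding 5′ ends have a peak within about 2 kb, and the curve over all lncRNA 5′ ends hardly leaves its flanks.

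A few lncRNA promoters stood well above the rest, and these were counted with a threshold that moves with each library. A window was called open when its value exceeded the 95th percentile of intergenic windows in that library, a threshold that lay between 14.04% in Nons at day 7 and 37.7% in Nons at day 5. At day 0, 8.22% of lncRNA promoter windows were open, against 6.15% of all autosomal windows. Along the Nons course the share was 10.04%, 8.02%, 9.06% and 7.91%, beside 6.36%, 5.69%, 6.14% and 6.21% of all autosomal windows. Along the Smarcc1 course it was 9.20%, 7.83%, 9.21% and 8.40%, beside 6.32%, 5.76%, 6.25% and 6.31%. The mean share was 8.65% (SD 0.756), and it lay above 5%, the share of intergenic windows past the threshold, in 9 of 9 libraries (exact sign-flip permutation test, p = 0.00391). Within 10 strata of GC content, each with its own threshold, the mean share was smaller, at 7.54% (exact sign-flip permutation test, p = 0.00391). Protein-coding promoters were open in 22.5% to 32.6% of windows, and CpG-rich lncRNA promoters in 33.2% to 53.5%.

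Openness in the same window across libraries was less common. In all, 5231 lncRNA promoter windows (55.9%) were open in no library, 2495 in 1 and 905 in 2. There were 51 windows open in at least 7 of 9 libraries, which is 0.545% of members, beside 0.215% of all autosomal windows, 5.87% of protein-coding promoters and 0.0381% of intergenic windows. Of these 51, 20 were CpG-rich, which is 10.7% of the CpG-rich class, and 31 were CpG-poor, which is 0.338% of that class. Of the 51, 6 lay inside a protein-coding gene body and 6 had the start of a transcript of a protein-coding gene within 5 kb. The Pearson correlation of lncRNA promoter windows between pairs of libraries had a median of 0.172 (36 pairs, 9350 windows). It was 0.322 for protein-coding promoters and 0.0638 for intergenic windows. A window has the same base composition in both libraries of a pair, and its depth is unknown. The pairs join different days or arms, so noise in single windows was not separated from change between libraries. Values of single windows are therefore given for each library.

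Exactly 4 lncRNA promoter windows (0.0428%) were open in all 9 libraries, beside 0.02% of all autosomal windows. They belonged to Gm42418, AY036118, Gm15287 and AC132957.1, the last of which was named after its values were seen. The window of Gm42418 (chr17:39846241-39848025) was the highest member, with 39.5% before differentiation, 54.8%, 53.8%, 33.8% and 22.1% along the Nons course and 46.2%, 56.5%, 39.2% and 24.9% along the Smarcc1 course. Its neighbour AY036118 (chr17:39848028-39851920) followed with a mean of 40.4%. Both lie on a copy of the ribosomal RNA repeat, which the genome holds in many near-identical copies, so reads of other copies may be placed there and their values are uncertain. Gm15287, an antisense gene, had 26.7% before differentiation, 31.2%, 39.01%, 42.1% and 33.3% along the Nons course and 51.8%, 52.3%, 39.6% and 26.3% along the Smarcc1 course. AC132957.1 is CpG-poor and had 42% before differentiation, 42.96%, 39.2%, 34.4% and 24.3% along the Nons course and 30%, 48.6%, 35% and 19.1% along the Smarcc1 course. The other members with the highest means were Gm10433 at 37.8% and Gm5953 at 35.6%, both on chromosome 12. The lowest means were 4.78% at Gm6507, 5.53% at Gm16315 and 5.71% at Gm37151, all CpG-poor and open in 0 libraries.

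The share of open windows went with the class of lncRNA gene, which is described here without a test. Windows of processed transcripts (383) were open in 15.6% of cases on average, with a range over libraries from 13.8% to 19.3%. Long intergenic RNAs (4373 windows) and antisense genes (1751) were open in 9.27% and 9.34%, with ranges from 8.26% to 11.04% and from 7.995% to 11.1%. TEC genes (2631), which the annotation holds as yet to be experimentally tested, were open in 6.54%, with a range from 5.93% to 7.11%. The share of all autosomal windows, from 5.69% to 6.36% over libraries, was close to that of TEC genes. Processed transcripts lay above TEC genes in every library, without overlap of their ranges. Sense intronic genes (261) were open in 7.07%, with a range from 4.60% to 11.1%. Windows open in at least 7 libraries made up 3.66% of processed transcripts, 0.595% of long intergenic, 0.286% of antisense and 0.380% of TEC windows. Among all autosomal windows they made up 0.215%. These classes differ in CpG content, from 0.766 CpG per 100 bp in TEC windows to 1.22 in those of processed transcripts.

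Distance from protein-coding genes went with the level as well. Windows between 5 and 20 kb from a protein-coding 5′ end (2038) were open in 10.4% of cases, those between 20 and 100 kb (3925) in 9.52%, and those over 100 kb away (3387) in 6.61%. The ranges over libraries were 8.73% to 12.8%, 8.61% to 10.8% and 5.64% to 7.74%, so the farthest group did not overlap the others. That group lay near the share of all autosomal windows, which ranged from 5.69% to 6.36%. The GC content fell over the same groups, from 45.6% to 44.8% and 42.3%, and its part was not tested. Windows inside a protein-coding gene body (3789) were open in 7.76% and the others (5561) in 9.26%. The start of a further transcript of a protein-coding gene lay within 5 kb of 1091 members. Of these 11.1% were open, against 8.33% of the other 8259. Just inside the distance rule, Gm44243, Gm3428 and Gm48754 at 5002, 5008 and 5010 bp had mean levels of 12.1%, 9.85% and 13.6%. Just outside it, Gm16014, Gm47794 and F830208F22Rik at 4996, 4995 and 4992 bp had 14.6%, 22.6% and 14.7%.

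Well-known lncRNAs were then followed in 5 lists. The median of each list is set beside that of all member windows, 13.5% for the mean over 9 libraries. Of 31 pluripotency-associated lncRNAs in the annotation, the Platr (pluripotency-associated transcript) genes, Lncenc1, Panct2 and Snhg3, 23 had a member window. None of these windows was CpG-rich, yet 22 of 23 lay above the member median and their own median was 19.8%. The list median was 22.7% at day 0, where the member median was 11.8%. Along the Nons course it was 22.8%, 30%, 14.8% and 7.58%, and along the Smarcc1 course 19.4%, 27.8%, 18.8% and 8.49%, above the member median in 9 of 9 libraries. The excess over all members was widest at day 0 and narrowest at day 7 of Nons. Having been chosen with results of these data known, the lists describe and test nothing.

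Platr22 was the most open of these, with 40% before differentiation, 32.6%, 42.2%, 20% and 29.3% along the Nons course and 25%, 49.01%, 46.2% and 28.8% along the Smarcc1 course, and it was open in 8 of 9 libraries. This is the CpG-poor promoter with 6 CpG in the sequence above. Platr19 had 52.3% before differentiation, 27.7%, 47.8%, 29.6% and 3.51% along the Nons course and 25%, 47.7%, 25% and 6.12% along the Smarcc1 course, so it was highest at day 0 and lowest at day 7 of each arm. Lncenc1, an lncRNA of naive embryonic stem cells, had 36.6% before differentiation, 32.9%, 59.7%, 6.38% and 9.84% along the Nons course and 13.9%, 44.2%, 35.1% and 34.3% along the Smarcc1 course. At days 6 and 7 the Lncenc1 knockdown values were above those of Nons, and at days 4 and 5 they were below. Platr26, with a mean of 13.4%, was the single listed window under the member median.

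The small RNA hosts, genes whose introns or exons give rise to small nucleolar RNAs or microRNAs, had 17 member windows of 26 annotated genes. All 17 lay above the member median, Mir17hg by less than the rounding of these values, and 7 were CpG-rich. Snhg15, a small nucleolar RNA host, had 29.3% before differentiation, 27.7%, 43.2%, 30.3% and 9% along the Nons course and 29.03%, 52.7%, 32.7% and 13.3% along the Smarcc1 course. Dleu2, which hosts a microRNA pair, had 28.6% before differentiation, 26.1%, 35.1%, 25% and 18% along the Nons course and 21.7%, 27.8%, 27.9% and 17.1% along the Smarcc1 course. Snhg6 had 14.3% before differentiation, 30.7%, 36.8%, 23.5% and 14.3% along the Nons course and 20.7%, 34.1%, 45.1% and 26.5% along the Smarcc1 course. Each of these 3 was open in 7 libraries. Snhg8 was at 0% at day 0 but between 7.69% and 52.5% in the later libraries.

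Of the broadly expressed lncRNAs, 5 of 9 annotated genes were members, 3 of them CpG-rich, and all 5 lay above the member median. Dancr, named for opposing differentiation, had 39.1% before differentiation, 42%, 48.5%, 19.4% and 17.4% along the Nons course and 37.8%, 41.7%, 15.7% and 37.04% along the Smarcc1 course, and was open in 7 libraries. Malat1, a nuclear speckle RNA, had 24.3% before differentiation, 23.4%, 38.2%, 14.6% and 10.8% along the Nons course and 43.7%, 38.7%, 10.5% and 9.30% along the Smarcc1 course. Neat1, the scaffold of paraspeckles, had 11.2% before differentiation, 21.6%, 37.8%, 4.55% and 16.5% along the Nons course and 21.3%, 39.7%, 22.3% and 21.3% along the Smarcc1 course. The window of 2900097C17Rik, also known as Norad, had a mean of 21.3% and was open in 3 libraries.

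Imprinted lncRNAs had 9 member windows of 11 annotated genes, none CpG-rich, and 7 lay above the member median. The reads of both alleles were merged, so an allele that is open and one that is closed cannot be told apart from a pair at an intermediate level. Kcnq1ot1, which silences its neighbours on the paternal chromosome, had 17.6% before differentiation, 34.4%, 42.7%, 29.1% and 24.6% along the Nons course and 15%, 42.6%, 28.3% and 16.7% along the Smarcc1 course. Airn, which acts likewise on Igf2r, had a mean of 23.9%, and Meg3, expressed from the maternal chromosome, one of 24.1%. H19 had 14.7% before differentiation, 14.6%, 38.6%, 21.7% and 6.25% along the Nons course and 22.5%, 34.4%, 16.5% and 9.09% along the Smarcc1 course. Nctc1, at a mean of 8.95%, and Mirg, at 11.4%, were the lowest of the list.

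Lineage lncRNAs, most of them tied to neural, cardiac or Hox gene regions, had 11 member windows of 20 annotated genes, and 10 lay above the member median. Their list median at day 0 was 10.3%, below the 11.8% of all members and below the 22.7% of the pluripotency list. In Nons it was 20.5%, 25.2%, 18.8% and 9.22%, and along the Smarcc1 course 14.3%, 25%, 16.4% and 4.41%. The list median lay above that of all members in 7 of 9 libraries, and below it at day 0 and in the knockdown at day 7. Sox2ot, which overlaps Sox2, had 10.3% before differentiation, 19.2%, 37.9%, 18.8% and 4.17% along the Nons course and 12.04%, 22.1%, 14.4% and 2.63% along the Smarcc1 course. Hotair, from the Hoxc cluster, had 18.2% before differentiation, 18.8%, 33.1%, 22.6% and 3.88% along the Nons course and 7.79%, 18.9%, 7.89% and 16% along the Smarcc1 course. Rmst, a neural lncRNA that works with Sox2, was the lowest of the list, with 4.08% before differentiation, 19.8%, 10%, 5% and 4.63% along the Nons course and 9.02%, 21.4%, 8.22% and 6.90% along the Smarcc1 course, and it was open in 0 libraries.

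**Figure D4:**
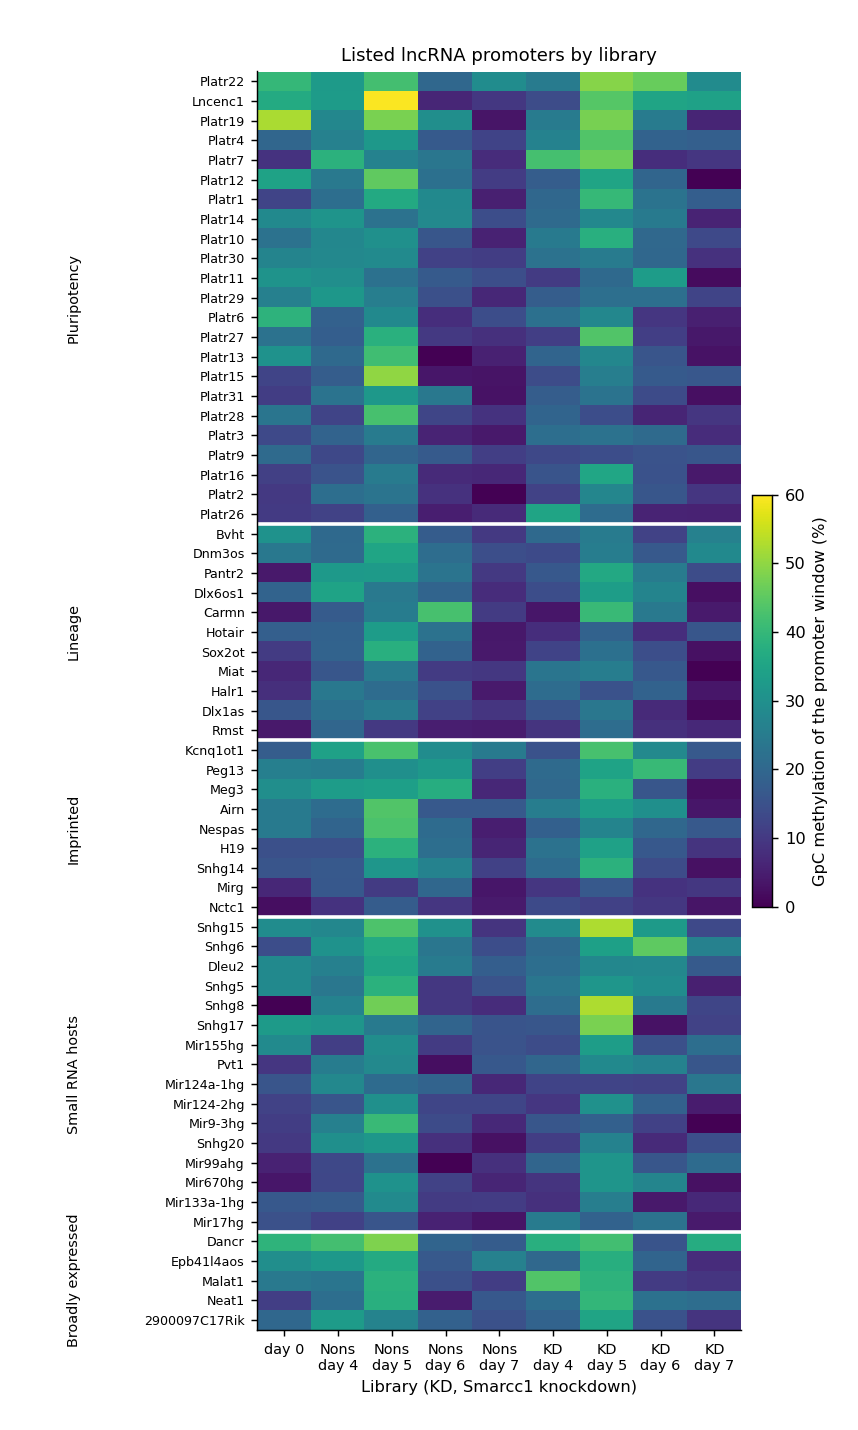
GpC methylation in percent (colour) of the promoter windows of the listed lncRNAs (vertical axis, by list and then by mean level; Snhg14 is shown under imprinted genes only) in the 9 libraries (horizontal axis). Day 5 of both arms is the brightest pair of columns and day 7 the darkest, with Platr22, Lncenc1, Snhg15 and Dancr at the top of their lists.

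The next question was how these promoters changed in the course of differentiation. They moved with the intergenic windows. The median paired change from day 0 over lncRNA promoter windows was 2.87, 10.2, -0.789 and -4.90 points along the Nons course (SDs over the 19 autosomes 0.673, 0.534, 0.618 and 0.525). The intergenic changes were 2.77, 9.68, -0.768 and -4.58 points. At day 5, 4760 lncRNA promoter windows (50.9%) were higher than at day 0 by at least 10 points, beside 48.8% of all autosomal windows. The change of CpG-rich members at day 5 was 14.9 points, with 63.1% of them past 10 points, from a higher starting level. The deposited values are not scaled between libraries, and the day 5 change became 0.305 points once each library was centred on its intergenic median and 0.172 points after quantile normalisation. The change of lncRNA promoters relative to intergenic windows at day 5 was 0.518 points (SD over autosomes 0.468). On a log2 scale the ratio of the lncRNA to the intergenic median lay between 0.06 and 0.17 in the 9 libraries.

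The last question was whether depletion of Smarcc1 altered lncRNA promoters. In the knockdown their median paired difference from Nons was -2.94, -1.55, 1.39 and 0.713 points from day 4 to day 7 (SDs over autosomes 0.356, 0.734, 0.348 and 0.325). It was negative on 19 of 19 autosomes at days 4 and 5 and positive on 19 of 19 at days 6 and 7. Intergenic windows moved the same way, by -2.84, -0.886, 1.40 and 0.490 points. The mean over the 4 days was -0.594 points for lncRNA promoters (SD 2.00; exact sign-flip permutation test over 4 day pairs, p = 0.625), and without day 4 it was 0.186. After quantile normalisation the mean was -0.136 points, with -0.144, -0.251, -0.103 and -0.0473 points on the 4 days, so that the sign no longer changed between days. With each library centred on its intergenic median it was -0.145 points. The lncRNA minus intergenic difference was -0.0928, -0.660, -0.00950 and 0.223 points on the 4 days, with a mean of -0.135 (SD 0.375; exact sign-flip permutation test, p = 0.625). Without day 5 that mean was 0.0403. A common effect of the knockdown on lncRNA promoters was thus not detectable over these days, and 4 pairs cannot reach a p of 0.05.

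**Figure D5:**
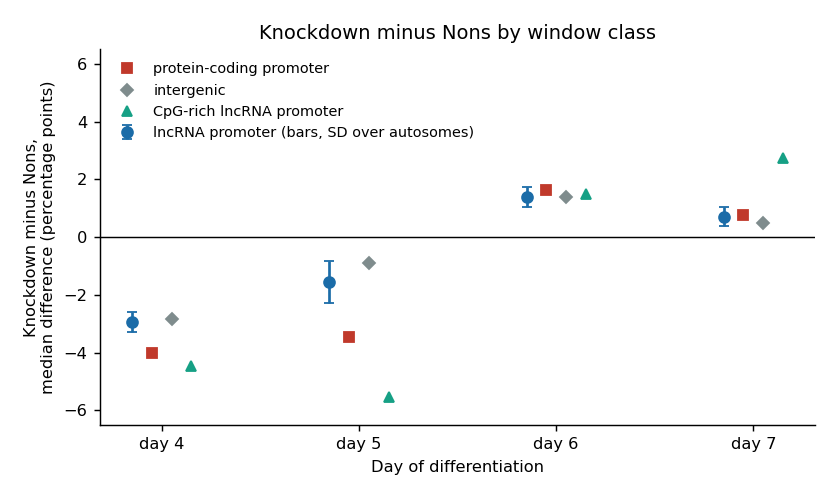
Median paired difference between Smarcc1 knockdown and Nons in percentage points (vertical axis) at days 4 to 7 (horizontal axis) over lncRNA promoter, protein-coding promoter, intergenic and CpG-rich lncRNA promoter windows, with bars on the lncRNA points for the SD over 19 autosomes. Every class lies below 0 at days 4 and 5 and above 0 at days 6 and 7.

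The differences of protein-coding promoters were -4.01 points at day 4 and -3.46 points at day 5, farther from 0 than those of lncRNA promoters. The lncRNA minus protein-coding values were 1.08, 1.91, -0.237 and -0.0510 points along the course (SDs over autosomes 0.412, 1.01, 0.705 and 0.555), with a mean of 0.676 (SD 1.01; exact sign-flip permutation test, p = 0.5). CpG-rich lncRNA promoters had differences of -4.46, -5.52, 1.49 and 2.74 points, against -4.01, -3.46, 1.63 and 0.764 points for protein-coding promoters. The CpG-rich differences lay farther from 0 than those of all protein-coding promoters at days 4, 5 and 7 and nearer at day 6. No paired difference was taken for CpG-rich protein-coding promoters alone. Their medians were 24.4%, 37.5%, 18.9% and 12% along the Nons course. Along the Smarcc1 course they were 19.5%, 32.3%, 20.9% and 13.4%, so this class moved in the same directions. Set against CpG-poor members, the CpG-rich differences had a mean of -0.866 points (SD 2.59, exact sign-flip permutation test, p = 0.75). All 8 sign-flip tests of this family had adjusted p-values of at least 0.857. Falls of at least 10 points were seen in 16.7% of lncRNA promoter windows at day 4, beside 14.7% of all autosomal windows, and in 22.3% at day 5, beside 20.6%. Rises of at least 10 points were seen in 14.6% at day 6, beside 13.2%, and in 9.604% at day 7, beside 8.25%.

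Single windows were examined with limma over all 829493 windows with day as a block. These take in the X chromosome beside the 786533 autosomal windows, whereas all members are autosomal. No lncRNA promoter window passed an adjusted p of 0.05 (0 of 9350, and 0% of all windows), and the smallest adjusted p in limma was 0.995. At an unadjusted p under 0.05, 175 members (1.87%) were higher in the knockdown, beside 1.58% of all windows, and 308 (3.29%) were lower, beside 2.65%. On all 4 days, 447 members (4.78%) were higher, beside 4.95% of all windows, and 674 (7.21%) were lower, beside 6.81%. Among the 187 CpG-rich members 20 (10.7%) had an unadjusted p under 0.05 in limma with a lower value. The share was 7.67% for protein-coding promoter windows of both CpG classes and 2.65% for all windows. With the spread modelled as a function of the level, limma gave only 4 of the 187 (2.14%), beside 2.60% of all windows.

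The members with the largest mean differences among those with the same sign on all 4 days were chosen by these values and are given as a description. The window of 1700067G17Rik (chr1:89014220-89016798) had 13.98%, 27.3%, 18.5% and 7.69% along the Nons course and 35.2%, 48.4%, 37.9% and 18.2% along the Smarcc1 course, a mean difference of 18.05 points (adjusted p = 0.995 in limma, 0.00018 before adjustment). The 4930414F18Rik window had 12.4%, 9.38%, 0% and 5.13% along the Nons course and 38.8%, 17.7%, 24.4% and 6.06% along the Smarcc1 course, with 14.3% at day 0. The window of Gm43572 lay between 0% and 14.3% in Nons and between 18.97% and 30.8% in the knockdown, a mean difference of 14.6 points. In these 3 windows the ranges of the arms overlapped for 1700067G17Rik and 4930414F18Rik and did not for Gm43572.

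Among the members that were lower on all 4 days, Gm15609 (chr15:89523524-89525486), a CpG-rich promoter, had 39.6% before differentiation, 20.6%, 60.4%, 18.2% and 20.2% along the Nons course and 15.5%, 11.5%, 11.4% and 5.56% along the Smarcc1 course, a mean difference of -18.9 points that was -8.84 without day 5. A transcript of a protein-coding gene also starts in this window. The 4930532I03Rik window had 18.7%, 64.7%, 22.4% and 11.8% along the Nons course and 10.8%, 10.3%, 18.2% and 3.85% along the Smarcc1 course, and its mean difference of -18.6 points was -6.66 without day 5. The 9330185C12Rik window had 39.8%, 41.7%, 33.3% and 8.54% along the Nons course and 18.1%, 23.3%, 11.8% and 0% along the Smarcc1 course, with a mean difference of -17.6 points that lay between -20.6 and -16.2 when any 1 day was left out.

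In the lists, 4 of 17 small RNA hosts were higher in the knockdown on all 4 days and 2 were lower, beside 4.95% and 6.81% of all windows. Mir99ahg, host of a microRNA cluster, had 13.04%, 22.7%, 0% and 8.40% along the Nons course and 19.7%, 31.2%, 16.1% and 21.1% along the Smarcc1 course, a mean difference of 10.97 points (adjusted p = 0.995 in limma, 0.00921 before adjustment). Mir17hg, host of an oncogenic microRNA cluster, had 11.7%, 15.9%, 5.63% and 3.06% along the Nons course and 25%, 18.8%, 22.6% and 4.26% along the Smarcc1 course. Mir9-3hg, host of a neural microRNA, had 26.1%, 40.7%, 13.6% and 6.90% along the Nons course and 16.1%, 18.4%, 11.7% and 0% along the Smarcc1 course, a mean difference of -10.3 points. Of 23 pluripotency windows 1 was higher and 2 were lower on all 4 days, and the counts were 0 and 2 of 11 for lineage, 0 and 1 of 9 for imprinted and 0 and 0 of 5 for broadly expressed genes. Beside the same shares of all windows, counts of this size over so few windows are given as a description only. None of the listed windows passed the adjusted threshold in limma, Mir9-3hg, with an unadjusted p of 0.0214, and Mir17hg, with 0.0450, included.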

How the data were processed

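NOMe-seq had been performed on 9 libraries of fixed cells. Per the study's methods, the authors used trim_galore for trimming and Bismark for alignment to an mm10 genome with FVB/CAST variants masked, and then split alleles with SNPsplit and extracted cytosine calls with the NOMe option, which keeps GpC positions. Seqmonk then gave the deposited percent GpC methylation over windows of 200 read positions, with alleles merged. The deposited values are not scaled between libraries and hold no read counts, so depth and intervals for counting error could not be given. The Bismark version is not given in the sources used here.

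LncRNA and protein-coding 5′ ends came from GENCODE M21. Class medians were computed in each library and compared by flipping signs in an exact two-sided permutation test, over 9 libraries or 4 day pairs (scipy 1.17.1). Single windows were fitted with limma 3.58.1 (R 4.3.3) with day as a block. Benjamini-Hochberg adjustment was over 829493 windows, those of the X chromosome included. The scripts were tested on simulated data. Alternatives covered scaling, distance, GC strata, thresholds and omitted libraries. The members and gene lists were chosen with earlier results of these data known. Named genes were the listed genes, the 5 highest and 3 lowest member means, and the 3 largest rises and 3 largest falls in the knockdown with 1 sign on all days.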

Additional observations from a re-analysis of the deposited data

Results flagged for a closer look

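The difference between Smarcc1 knockdown and Nons changed direction in the course of differentiation. Over lncRNA promoter windows the values from day 4 to day 7 were -2.94, -1.55, 1.39 and 0.713 points, with the same sign on 19 of 19 autosomes on each day. Over the 187 CpG-rich lncRNA promoter windows the values were -4.46 and -5.52 points, then 1.49 and 2.74 points. With 1 library per arm and day, the difference between early and late days was not tested. Intergenic windows changed sign on the same days, with -2.84 and -0.886 points followed by 1.40 and 0.490 points. After quantile normalisation, which gives all libraries the same distribution, the lncRNA values were -0.144, -0.251, -0.103 and -0.0473 points, with 1 sign on all days, and those of CpG-rich members were -1.63, -1.74, 0.227 and 0.135 points. With libraries centred on their intergenic medians they were -0.0567, -0.713, -0.0421 and 0.232 points, and -1.58, -4.69, 0.0594 and 2.26 points.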

How the results depend on the processing

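Of 135 alternatives, 5 of them chosen after seeing the data, 131 left the result on the same side of its threshold with the same sign or, for a value or a count with no threshold, near its size. For the mean knockdown differences, over 4 day pairs or fewer, no p under 0.05 was possible, so only the sign could change. The rise of lncRNA promoters at day 5 of Nons over day 0, 10.2 points as deposited, was 0.172 points after quantile normalisation and 0.305 points with each library centred on its intergenic median, so it rests on the level of whole libraries. Leaving out 1 day at a time moved the mean knockdown difference of lncRNA promoters (-0.594) from -1.26 to 0.186 points, the latter without day 4, and the lncRNA minus intergenic difference from -0.254 to 0.0403 points, the latter without day 5. The mean knockdown difference was -0.136 points after quantile normalisation and -0.145 points with libraries centred on the intergenic median. The lncRNA excess over intergenic windows, 0.893 points, ranged from 0.568 to 1.13 points. The difference from protein-coding promoters, -4.03 points, was -1.55 points with the 5′ ends of all transcripts of protein-coding genes. That difference was -2.40 points within strata of GC content and -0.949 points among CpG-rich windows. With the 99th percentile in place of the 95th, the open share was 2.51% and not 8.65%. The share of intergenic windows past that threshold is smaller by definition, so the 2 shares are not on 1 scale. The open share still lay above it (exact sign-flip permutation test, p = 0.00391). Within strata of GC content, with the 95th percentile, the open share was 7.54%. The number of lncRNA promoter windows at an unadjusted p under 0.05 in limma was 483 and ranged from 388 to 544. Each group has 1 library, so no replicate numbers pair samples across groups, and the arms were compared within days throughout. Depth per window is unknown, and a median correlation of 0.172 between libraries limits what single windows show.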
